A study of Capra hircus with 90 samples.

Results

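The 12 libraries described here came from the ventral respiratory column (VRC) of goats kept for 24 h in 6% inspired CO2 or for 24 h in room air, 6 libraries a group, and were chosen by their titles out of the 90 libraries of the study. The goats were adult, outbred females of Alpine, Saanen, Toggenburg and other breeds, at least 2 years old, and were assigned at random to 5 exposures of 6 animals. All 12 were punches of frozen brainstem taken 2 to 4 mm rostral to the obex, aimed at the pre-Bötzinger complex and the nucleus ambiguus, and both groups were extracted and sequenced in the first of 2 batches. The labels name no drug, transgene or lesion in any group. Another VRC group of the same batch, goats after 3 h of 6% CO2, entered the fit and shared its estimate of spread. The other libraries used here, for comparison, were those of the nucleus of the solitary tract (NTS) and the retrotrapezoid nucleus (RTN) from the same exposures, and those of VRC goats kept for 7 d in 6% CO2 or room air, which belong to the second batch.

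The ventral respiratory column is a strip of neurons in the ventrolateral medulla. It holds the pre-Bötzinger complex, which generates the rhythm of inspiration, and, in the nucleus ambiguus, motor neurons of the upper airway. Raised CO2 acidifies blood and brain, drives breathing through chemoreceptors that project to this column, and dilates the vessels of the brain. A punch holds neurons, glia and vessels together, so its RNA is a mixture of all of them.

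Totals per library lay between 12.3 M and 27.9 M counts in room air and between 5.46 M and 24.2 M after CO2, and the shallowest library was CO2 library 4. Genes at 1 CPM (counts scaled to library size with TMM factors) or more numbered 13991 to 14159 and 14016 to 14148 in the groups, and the 10 most abundant genes took 6.15% to 8.35% and 6.98% to 7.86% of the counts. On the first principal component of the 12 libraries, which held 18.5% of the variance, the groups overlapped, with room-air library 6 at one end and CO2 libraries 5 and 1 at the other. The markers meant to check the tissue (pan-neuronal, glutamatergic, glycinergic, myelin and astrocyte genes) could not be linked to a symbol, so the identity of the punch was not checked by name. Symbols were linked to Ensembl identifiers only for genes that the authors had put in their own result tables, and all 71 called genes that carry one are in the authors' deposited table for this comparison. A list member mostly carries a symbol because the authors had called it, so the counts of list members below are no independent evidence of a list's direction. Changes are given on the log2 scale throughout.

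Most of the genes called in the VRC after 24 h of CO2 had lower levels, whereas over all genes 7644 of 15424 were lower. EGLN1, the oxygen-sensing prolyl hydroxylase, PPM1D, a phosphatase that restrains p53, NCK2, an adaptor of receptor tyrosine kinases, and DENND5A, an activator of Rab GTPases, had the lowest p-values among the named falls; by size, EGLN1 and DENND5A changed by less than the median fall. The few named genes that rose include CD1D, which presents lipid antigens, and NCF4, a cytosolic part of the NADPH oxidase of phagocytes. CD1D stayed under an adjusted p of 0.05 in 15 of 22 alternative settings and NCF4 in 6. The other linked myeloid genes, AIF1 and CD14, did not pass. Of 15424 genes tested, 126 (0.817%) passed an adjusted p of 0.05 by edgeR's quasi-likelihood test: 112 fell (0.726%) and 14 rose (0.0908%). The count depends on the libraries and the tool: it ran from 18 without CO2 library 1, 24 without CO2 library 5 and 30 without room-air library 3 up to 126 without room-air library 6, and DESeq2 called 274. Of the 126 genes, 82 passed in 6 or fewer of the 12 fits that each left out 1 library. The falls ran from -0.33 to -2.90 on the log2 scale with a median of -0.90, and 45 of them exceeded 1 in size; the median change of all genes tested was 0.0021. Of genes at 10 CPM or more in room air, whatever their p, 44 had a change below -1 and 6 a change above 1. The 12 libraries separated for 94 of the 112 genes that fell, with every CO2 library below every room-air library, against 1.47% of all genes tested. They separated the other way for 8 of the 14 that rose, against 0.46%. Since the calls rest on these same 12 libraries, both counts are a description and not a test.

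**Figure D1:**
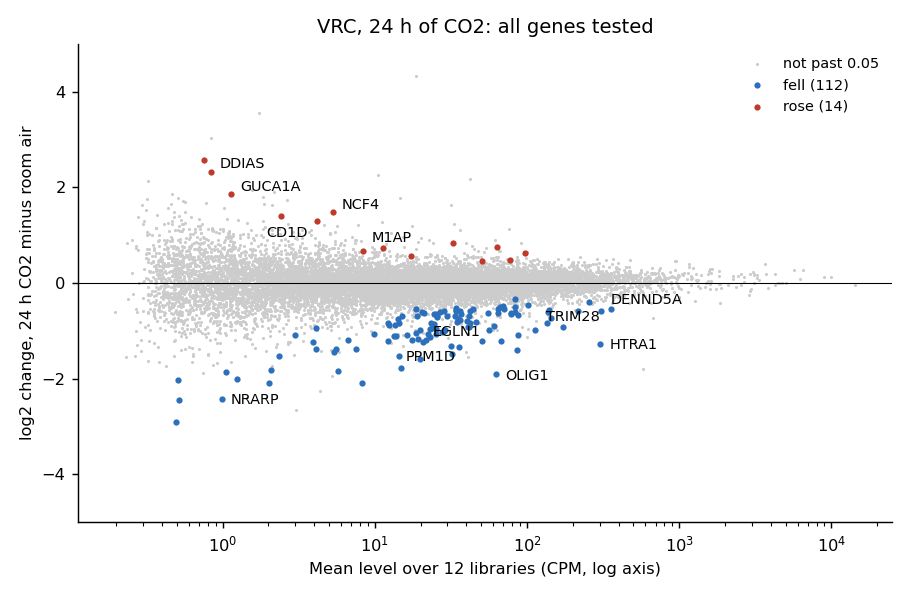
Each point is 1 of 15424 genes in the VRC, with its mean level over the 12 libraries (CPM, log axis) against its log2 change after 24 h of CO2; blue points fell and red points rose at an adjusted p under 0.05, and grey points did not pass. The 112 blue points outnumber the 14 red ones at nearly every level above a few CPM.

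The room-air group is the extreme of the study for many of these genes. The mean of the 24 h room-air VRC was the highest of all 15 group means for 84 of the 112 genes that fell (75%), against 8.38% of all genes tested. It was the highest of the 5 VRC groups for 110 of the 112, against 18.8% of all genes tested. The CO2 group was the lowest of the 15 for 40 of the 112, against 6.41% of all genes tested. The genes were called on these same room-air libraries, so the shares are a description and not a test, and the part of the room-air group in the falls was not tested. For the genes that rose, the room-air mean was the lowest of 15 for 6 of 14 (6.19% of all genes tested). The CO2 mean was the highest of 15 for 6 of these 14 (6.75% of all genes tested).

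Cells sense oxygen through prolyl hydroxylases, which mark hypoxia-inducible factors for breakdown, and those factors in turn switch on genes such as VEGFA, the main growth factor of vessels, and EGLN1 itself. EGLN1 lay between 59.3 and 85.6 CPM in room air (median 81.1) and between 36.5 and 45.4 CPM after CO2 (median 43.1). The groups do not overlap, and 5 of the 6 room-air libraries lie within a few CPM of each other, with library 5 apart and lower. EGLN1 fell, with a log2 change of -0.89 (SE 0.13, adjusted p = 0.00762). The call held in 12 of the 12 leave-one-out fits, each of which dropped 1 of the 12 libraries. Of the 21 genes listed for oxygen sensing only EGLN1 and VEGFA could be linked. VEGFA lay between 39.2 and 61.8 CPM in room air (median 59.7) and between 24.9 and 46.2 CPM after CO2 (median 37.2). CO2 libraries 2, 4 and 5 lay above room-air library 5, and VEGFA did not pass, with a change of -0.63 (SE 0.16, adjusted p = 0.0769). VEGFB, a ligand of the VEGF family that binds FLT1, was among 3 linked of 10 listed VEGF ligands and receptors. VEGFB lay between 28.8 and 39.0 CPM in room air (median 30.3) and between 15.1 and 25.7 CPM after CO2 (median 18.3). Every CO2 library lay below every room-air library. VEGFB fell, with a log2 change of -0.71 (SE 0.14, adjusted p = 0.0214). The call of VEGFB held in 9 of the 12 fits. VEGFC, the ligand of lymphatic vessels, differed by -0.20 (SE 0.21, adjusted p = 0.730).

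The p53 pathway answers DNA damage by arresting or killing cells, and several of its targets feed back on it. Of 20 listed target genes 4 were linked, and 2 of them fell. PPM1D lay between 15.5 and 25.3 CPM in room air (median 23.5) and between 6.56 and 8.62 CPM after CO2 (median 7.24). The CO2 libraries form a tight group below all room-air libraries, among which libraries 5 and 6 are the lowest. PPM1D fell, with a log2 change of -1.53 (SE 0.24, adjusted p = 0.00851). PHLDA3, a p53 target that blocks AKT at the membrane, showed the same separation. PHLDA3 lay between 22.7 and 41.2 CPM in room air (median 29.1) and between 4.74 and 13.9 CPM after CO2 (median 10.2). PHLDA3 fell, with a log2 change of -1.59 (SE 0.33, adjusted p = 0.0282). PPM1D passed in 12 of the 12 leave-one-out fits and PHLDA3 in 3. The ceramidase ACER2 did not pass, at -0.48 (SE 0.13, adjusted p = 0.102), and neither did BAX, which permeabilises mitochondria, at 0.12 (SE 0.13, adjusted p = 0.745).

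Of the 24 listed protein kinase and adaptor genes of growth signalling 4 were linked, and all 4 fell. NCK2 couples activated receptors to the actin skeleton. NCK2 lay between 32.0 and 47.2 CPM in room air (median 38.6) and between 14.0 and 24.0 CPM after CO2 (median 18.0). NCK2 fell, with a log2 change of -1.0 (SE 0.16, adjusted p = 0.00851). STK11 encodes LKB1, the kinase upstream of AMP-activated kinase. STK11 lay between 25.3 and 35.4 CPM in room air (median 30.8) and between 12.4 and 18.2 CPM after CO2 (median 15.9). STK11 fell, with a log2 change of -0.96 (SE 0.18, adjusted p = 0.0163). In neither gene do the groups overlap. LATS2, a kinase of the Hippo pathway, ranged more widely in room air than after CO2. LATS2 lay between 13.4 and 24.2 CPM in room air (median 18.3) and between 8.00 and 10.5 CPM after CO2 (median 8.55). LATS2 fell, with a log2 change of -1.11 (SE 0.21, adjusted p = 0.0163). AKT1, the central kinase of insulin and growth factor signalling, separated as cleanly by library. AKT1 lay between 53.6 and 83.6 CPM in room air (median 71.5) and between 25.9 and 32.8 CPM after CO2 (median 31.3). AKT1 fell, with a log2 change of -1.20 (SE 0.26, adjusted p = 0.0307). The calls of NCK2 and STK11 held in all 12 leave-one-out fits, that of LATS2 in 10 and that of AKT1 in 3. Other kinases and a G protein, named after their values were seen, also fell: GNA12 by 1.32 (SE 0.25), the autophagy kinase ULK2 by 0.69 (SE 0.15), and the microtubule-affinity kinase MARK3 by 0.54 (SE 0.11).

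Wnt signals act through beta-catenin and are held in check by secreted and cytosolic antagonists. Of 24 listed genes 4 were linked and all 4 fell, among them 2 antagonists and a target. DACT3 lay between 31.1 and 61.0 CPM in room air (median 47.2) and between 11.9 and 22.3 CPM after CO2 (median 16.9). DACT3 fell, with a log2 change of -1.49 (SE 0.28, adjusted p = 0.0185). DACT3 is an antagonist that acts on Dishevelled. APCDD1, an antagonist at the cell surface, had 1 room-air library, number 3, far above the rest. APCDD1 lay between 63.0 and 113 CPM in room air (median 68.6) and between 27.7 and 51.2 CPM after CO2 (median 35.3). APCDD1 fell, with a log2 change of -0.99 (SE 0.23, adjusted p = 0.0444). RHOU, a small GTPase induced by Wnt, fell by 1.06 (SE 0.25), and CCDC85C, which sits at cell junctions, by 1.38 (SE 0.25). CCDC85C passed in 11 of the 12 leave-one-out fits, DACT3 in 9, and APCDD1 and RHOU in 1 each. Modulators of Notch were noticed after their values were seen and are in no list. NRARP, a feedback inhibitor of Notch, fell by 2.43 (SE 0.53), RFNG, a glycosyltransferase that modifies the receptor, by 1.08 (SE 0.22) and DTX1, a ubiquitin ligase, by 0.96 (SE 0.20). The level of NRARP was low, at most 0.628 CPM in any CO2 library, and CO2 library 4 held 2 counts of it. RFNG lay between 109.6 and 124 CPM in room air (median 121) and between 47.2 and 67.0 CPM after CO2 (median 54.9). The RFNG groups lie far apart, whereas for DTX1 2 of the CO2 libraries lay within the range of room air. NRG2, a ligand of ERBB receptors, fell by 1.12 (SE 0.23), and ZNRF1, a ubiquitin ligase of neurons, by 0.65 (SE 0.12).

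The low-density lipoprotein receptor family takes up lipoproteins and, in the brain, relays signals such as reelin. Of 14 listed members LRP3 and LRP8 were linked, and both fell. LRP8 is the apolipoprotein E receptor that binds reelin. LRP8 lay between 28.4 and 43.4 CPM in room air (median 38.5) and between 15.1 and 21.3 CPM after CO2 (median 17.9). LRP8 fell, with a log2 change of -1.02 (SE 0.18, adjusted p = 0.0151). LRP3 lay between 50.3 and 77.7 CPM in room air (median 55.7) and between 29.2 and 40.5 CPM after CO2 (median 32.2). LRP3 fell, with a log2 change of -0.81 (SE 0.13, adjusted p = 0.0105). Neither gene had a CO2 library inside the room-air range, and both passed in all 12 leave-one-out fits. Lipid-handling genes outside the lists, named after their values were seen, fell as well: the oxysterol-binding protein OSBP by 0.95 (SE 0.19), STARD7, which carries phosphatidylcholine to mitochondria, by 0.74 (SE 0.16), and the acyltransferase LPGAT1 by 0.76 (SE 0.17).

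Rab GTPases and their activators route vesicles through the cell. Of 20 listed genes of vesicle traffic and autophagy 3 were linked and 2 fell. DENND5A lay between 301 and 444 CPM in room air (median 377) and between 228 and 255 CPM after CO2 (median 249). DENND5A fell, with a log2 change of -0.59 (SE 0.09, adjusted p = 0.00851). RAB12 lay between 22.0 and 28.3 CPM in room air (median 24.4) and between 7.29 and 13.8 CPM after CO2 (median 10.5). RAB12 fell, with a log2 change of -1.20 (SE 0.21, adjusted p = 0.0148). RAB12 directs receptors to lysosomes. For both genes each CO2 library was below each room-air library, and both calls held in all 12 leave-one-out fits. MAP1LC3A, a protein of the autophagosome membrane, overlapped between the groups and differed by -0.07 (SE 0.11, adjusted p = 0.834). Of 23 listed ArfGAP-domain genes, which switch off Arf GTPases, AGAP3 fell by 0.66 (SE 0.15) and ADAP1 by 0.92 (SE 0.22), while AGFG1 did not pass at -0.99 (SE 0.25, adjusted p = 0.0769). AGAP3 passed in 2 of the 12 leave-one-out fits and ADAP1 in 1, and ADAP1 did not pass with no filter on low counts (adjusted p = 0.0678). RAB11FIP3, an effector of RAB11 named after its values were seen, fell by 0.58 (SE 0.12).

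TRIM28 is the corepressor that silences retroelements through zinc finger proteins, and with ZNF329 it was 1 of 2 linked of 21 listed corepressor and chromatin genes. TRIM28 lay between 143 and 158 CPM in room air (median 149) and between 54.1 and 89.7 CPM after CO2 (median 78.6). The room-air libraries span only a narrow range here. TRIM28 fell, with a log2 change of -0.98 (SE 0.18, adjusted p = 0.0154). ZNF329 fell by 1.06 (SE 0.25). LEMD2, an inner nuclear membrane protein, was the only linked gene of 12 listed for the nuclear envelope. LEMD2 lay between 37.5 and 62.2 CPM in room air (median 53.4) and between 17.2 and 25.2 CPM after CO2 (median 20.2). LEMD2 fell, with a log2 change of -1.35 (SE 0.24, adjusted p = 0.0154). GATAD2A, a subunit of the nucleosome remodelling and deacetylase complex, fell by 0.76 (SE 0.17), and the zinc finger factor MAZ by 0.87 (SE 0.19); both were named after their values were seen. TRIM28 and LEMD2 passed in 11 of the 12 leave-one-out fits each, and ZNF329 in 0.

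Among the remaining falls of lowest p were genes of RNA handling and protein turnover. EXOSC6, a core subunit of the RNA exosome, had room-air levels from 6.67 to 12.9 CPM and CO2 levels from 1.28 to 3.36 CPM, and fell by 1.84 (SE 0.34). EIF4E3, a cap-binding protein, fell by 0.66 (SE 0.12) and BTBD6, an adaptor of cullin-3 ubiquitin ligases, by 1.06 (SE 0.19). SELENOO, a mitochondrial selenoprotein and the only linked gene of 14 listed selenoproteins, fell by 0.99 (SE 0.18). MTCL2, a microtubule crosslinker, fell by 0.79 (SE 0.14), FBRSL1 by 1.43 (SE 0.27) and the zinc finger gene THAP8 by 0.62 (SE 0.12). The groups did not overlap in any of these 7 genes. BTBD6, SELENOO, MTCL2 and FBRSL1 passed in all 12 leave-one-out fits, EIF4E3 and THAP8 in 11 and EXOSC6 in 10. Of other genes named after their values were seen, the secreted protease HTRA1 fell by 1.27 (SE 0.28) and COL4A2, a collagen of the vessel basement membrane, by 0.77 (SE 0.15).

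OLIG1 and OLIG2 are the transcription factors that specify oligodendrocytes, the cells that make myelin, and were the 2 linked genes of 19 listed for that lineage. OLIG1 lay between 83.8 and 117 CPM in room air (median 96.7) and between 14.7 and 36.4 CPM after CO2 (median 27.1). The lowest room-air library is still more than the highest CO2 library by a wide margin. OLIG1 fell, with a log2 change of -1.91 (SE 0.43, adjusted p = 0.0489). OLIG2 lay between 12.2 and 28.5 CPM in room air (median 24.1) and between 6.01 and 12.4 CPM after CO2 (median 8.46). For OLIG2, CO2 library 1 lay just above room-air library 6 and the other libraries separated; it did not pass, with a change of -1.32 (SE 0.32, adjusted p = 0.0547). The summed level of both ran from 96.0 to 146 CPM in room air and from 21.4 to 45.6 CPM after CO2. In a punch, fewer cells of a type and less RNA per cell cannot be told apart. No myelin gene could be linked, and OLIG1 passed in 0 of the 12 fits that left out a library. SOX21, a factor of neural progenitors named after its values were seen, fell by 1.38 (SE 0.29). NR1D2, the nuclear receptor REV-ERB-beta that represses clock genes, was the only linked gene of 21 listed for the circadian clock. NR1D2 lay between 35.3 and 65.0 CPM in room air (median 60.2) and between 24.6 and 35.4 CPM after CO2 (median 31.0). Room-air library 6 lay inside the CO2 range and library 5 between that range and the other 4. NR1D2 fell, with a log2 change of -0.83 (SE 0.19, adjusted p = 0.0357). It passed in 2 of the 12 leave-one-out fits.

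**Figure D2:**
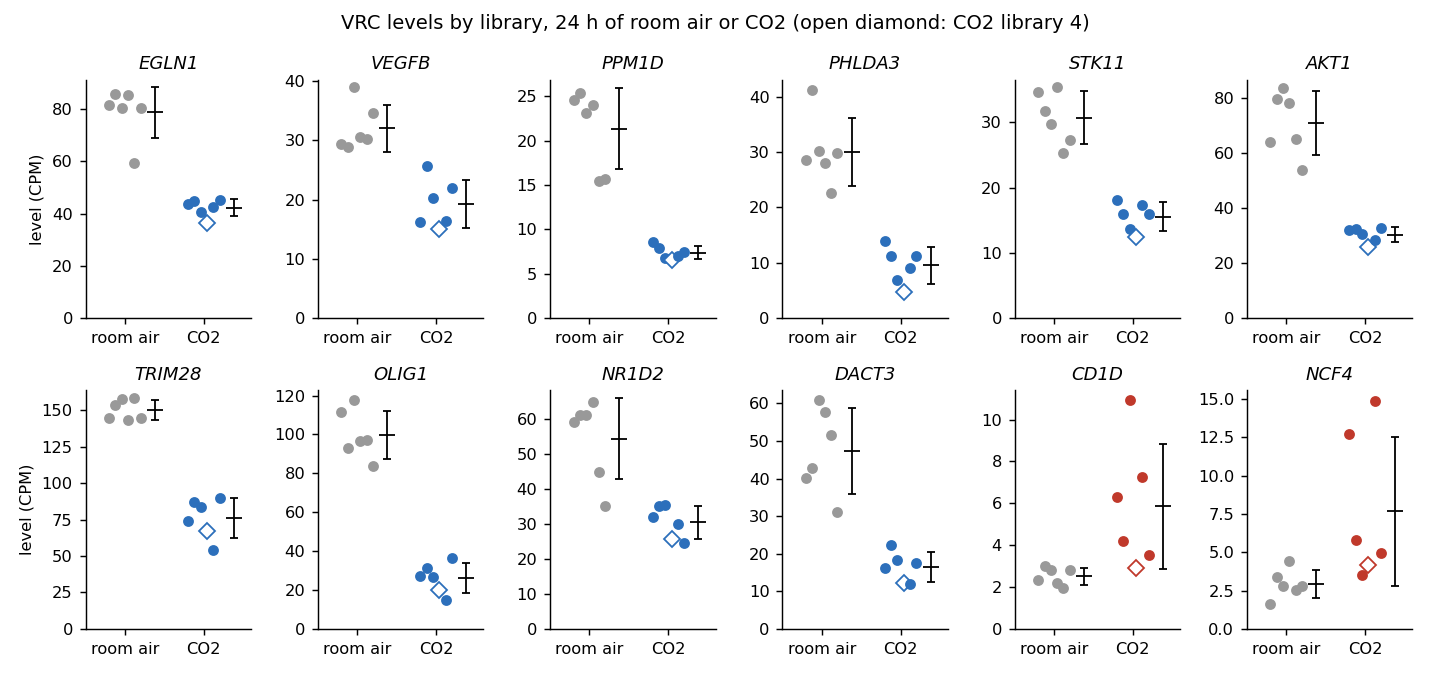
Levels in CPM of 12 genes in each of the 12 VRC libraries, grey for 24 h of room air and coloured for 24 h of CO2, with the mean and SD (n = 6) beside each group and CO2 library 4 as an open diamond; each axis starts at 0. In the first 10 panels the CO2 libraries sit below the room-air libraries, apart from the NR1D2 panel where 1 room-air library reaches them, and in the panels of CD1D and NCF4 the CO2 libraries spread upward.

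Of the 14 genes that rose 5 carry a symbol. M1AP lay between 5.68 and 7.52 CPM in room air (median 6.55) and between 9.11 and 12.5 CPM after CO2 (median 9.58). M1AP, a gene of meiosis, is the only one of the 5 whose groups separate, and it rose by 0.67 (SE 0.15). CD1D lay between 1.95 and 3.00 CPM in room air (median 2.56) and between 2.92 and 10.9 CPM after CO2 (median 5.23). CD1D rose, with a log2 change of 1.30 (SE 0.27, adjusted p = 0.0231). NCF4 lay between 1.64 and 4.43 CPM in room air (median 2.80) and between 3.50 and 14.9 CPM after CO2 (median 5.38). CO2 libraries 1 and 5 stand far above the other 4 for NCF4, and libraries 3, 5 and 1 are the highest for CD1D. NCF4 rose, with a log2 change of 1.48 (SE 0.35, adjusted p = 0.0444). GUCA1A, an activator of retinal guanylate cyclase, rose by 1.86 (SE 0.40) and DDIAS, a suppressor of apoptosis after DNA damage, by 2.33 (SE 0.49), both from levels under 1 CPM in every room-air library. DDIAS and GUCA1A were each called in 7 of the 12 leave-one-out fits. CD1D was called in 6 of them, and NCF4 and M1AP in 2 each. With voom in place of edgeR's test, CD1D (adjusted p = 0.0841), GUCA1A (0.114), DDIAS (0.148) and NCF4 (0.150) did not pass. NCF4 also did not pass with the 2 groups fitted alone (adjusted p = 0.0542) or with no filter (0.0530). Other linked microglial and myeloid genes did not pass: AIF1 differed by 0.12 (SE 0.12, adjusted p = 0.725) and CD14 by 0.22 (SE 0.19, adjusted p = 0.679). The summed level of the 3 linked of 21 listed myeloid genes ran from 54.1 to 82.9 CPM in room air and from 58.2 to 84.8 CPM after CO2, with 0 members absent, and the part of cell content in the rises was not tested.

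The remaining lists gave 1 call among them. None of the 8 linked of 43 listed ribosomal proteins passed, with a median change of 0.38, nor any of the 9 linked of 40 listed genes of oxidative phosphorylation, with a median of 0.27. The mitochondrially encoded COX1 did not pass. COX1 lay between 323 and 1409.6 CPM in room air (median 875) and between 217 and 389 CPM after CO2 (median 235). All CO2 libraries except number 5 lay in a narrow low band, room-air library 3 lay within the range of the CO2 group, and the change was -1.81 (SE 0.45, adjusted p = 0.0818). Of 3 linked of 16 listed genes of RNA polymerase II 0 passed (median 0.26). Of the 8 linked of 19 listed endothelial and pericyte genes only the transcription factor FOXQ1 fell, by 1.87 (SE 0.39), from levels of 1.06 to 2.23 CPM. After CO2 it reached at most 0.734 CPM. FOXQ1 passed in 16 of 22 alternative settings. By edgeR it did not pass without room-air library 1 (adjusted p = 0.0611) or 3 (0.0548). Without CO2 library 1 (0.0524), 4 (0.0509) or 5 (0.0912) FOXQ1 did not pass either, nor with edgeR's older dispersion estimate (0.0862). ACKR1, a chemokine receptor of venules, reached 69.9 CPM in CO2 library 5 against at most 9.27 CPM in room air and differed by 1.77 (SE 0.47, adjusted p = 0.102). TTR, the transthyretin of the choroid plexus, ran from 0.482 to 2.58 CPM in room air and from 1.39 to 164 CPM after CO2, highest in library 3, and differed by 4.32 (SE 1.24, adjusted p = 0.143). Of the neuronal list, PRPH, the intermediate filament of motor neurons, and SHOX2 were linked, at 0.83 (SE 0.51, adjusted p = 0.532) and 0.01 (SE 0.23, adjusted p = 0.995). The blood genes HBQ1 and HEMGN differed by 0.13 (SE 0.22, adjusted p = 0.852) and 0.17 (SE 0.38, adjusted p = 0.889). No astrocyte, immediate early, glucocorticoid-responsive or acid-base gene could be linked. Of the 126 called genes 55 carry only an identifier, 46 that fell and 9 that rose. ENSCHIG00000004739 and ENSCHIG00000019796 rose by 0.74 (SE 0.12) and 0.85 (SE 0.14), and ENSCHIG00000024684 and ENSCHIG00000010741 fell by 0.49 (SE 0.09) and 0.51 (SE 0.09); the first 3 passed in all 12 leave-one-out fits.

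The values just inside and outside the threshold were alike. RHOU, OLIG1 and ZNF329 had an adjusted p of 0.0489, whereas ZNF853 (log2 change -1.95, adjusted p = 0.0517), the growth regulator MYCN (-1.34, adjusted p = 0.0528) and OLIG2 did not pass. In the authors' deposited table for this contrast, made with a likelihood ratio test, 115 genes are listed, 95 lower and 20 higher. Of these, 78 passed here, which is 67.8% of that table and 61.9% of the 126, and all 111 of its entries that were tested here had the same sign. That table rests on the same libraries, so the shared genes and signs are no independent evidence.

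CO2 library 4 held 5.46 M counts, and the comparison was repeated without it. The log2 changes hardly moved: 126 of 126 called genes kept their sign, 124 shifted by less than 0.1, and the median of the falls went from -0.90 to -0.88. Of all 15424 genes tested, 14841 kept their sign. The called genes were chosen with library 4 in the fit, so their kept signs are a description and not a test. The adjusted p-values rose, to 0.11 at most, and 52 of 15546 genes (0.334%) passed, 43 lower and 9 higher. All 52 were among the 126. EGLN1 then had a change of -0.86 (adjusted p = 0.0188), PPM1D of -1.51 (adjusted p = 0.0188) and NCK2 of -0.96 (adjusted p = 0.0232). OLIG1 had -1.87 (adjusted p = 0.103), NR1D2 -0.80 (adjusted p = 0.0774) and AKT1 -1.18 (adjusted p = 0.0681). Among the genes that rose, CD1D stayed past the threshold at 1.36 (adjusted p = 0.0401), and NCF4 at 1.54 did not (adjusted p = 0.0536). Library 4 was the lowest of the 6 CO2 libraries for 40 of the 112 genes that fell and for 9 of the 14 that rose. With the 2 groups alone in the fit and without library 4, a setting added after the data were seen, 185 genes passed, against 263 in the same fit with library 4.

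**Figure D3:**
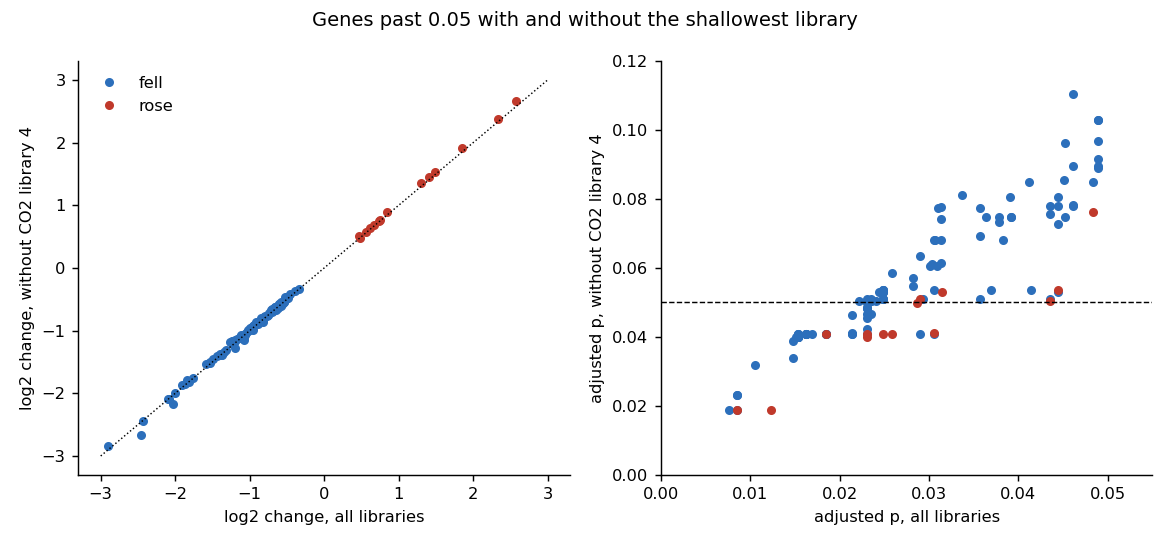
The 126 called genes with all libraries (horizontal) and without CO2 library 4 (vertical): log2 changes on the left, with a dotted line of equality, and adjusted p-values on the right, with a dashed line at 0.05. The changes lie on the line, and 52 of the 126 points stay below the dashed line.

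Levels after 24 h of CO2 were next compared with those after 3 h in the same batch. By edgeR 0 of 15424 genes passed (lowest adjusted p = 0.261), with 1087 at an unadjusted p under 0.05, and DESeq2 called 14. Of the 5 genes of lowest p in each direction, the higher at 24 h include NCF4 (log2 difference 1.34, SE 0.34, adjusted p = 0.494) and GUCA1A (1.44, SE 0.38). The lower include THBD, the endothelial thrombomodulin (-1.30, SE 0.31, adjusted p = 0.467), TUBB6, a tubulin (-0.91, SE 0.23) and VEGFC (-0.73, SE 0.20). For EGLN1 the difference was -0.06 (SE 0.13, adjusted p = 0.954) and for PPM1D -0.48 (SE 0.25, adjusted p = 0.749). EGLN1 averaged 44.6 CPM at 3 h and 42.3 CPM at 24 h, PPM1D 10.3 and 7.38 CPM, OLIG1 42.2 and 26.1 CPM and NCF4 3.19 and 7.67 CPM. Both times were set against the same room-air goats, and at 3 h 2 of 15424 genes passed (0.013%), EGLN1 (-0.82, SE 0.13, adjusted p = 0.0140) and VEGFB (-0.89, SE 0.14, adjusted p = 0.0140), with 2006 at an unadjusted p under 0.05. The 112 genes that fell at 24 h had a median change of -0.63 at 3 h and of -0.90 at 24 h, against 0 over all genes tested at 3 h. Of these 112, 110 reached an unadjusted p under 0.05 at 3 h by edgeR, 0 of them higher, against 2006 of all 15424 genes. Since the room-air libraries are shared, these values are a description. At 3 h NCK2 had a change of -0.68 (SE 0.16), PPM1D of -1.05 (SE 0.22), TRIM28 of -0.72 (SE 0.18) and OLIG1 of -1.23 (SE 0.41).

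The effect at 24 h differed between the VRC and the other sites. Against the RTN, the CO2-sensing group of neurons under the facial nucleus, 108 of 16339 genes (0.661%) passed, 105 with a lower effect in the VRC (0.643%) and 3 with a higher one (0.0184%). PPM1D differed by -2.22 (SE 0.38, adjusted p = 0.00304), DACT3 by -2.36 (SE 0.41, adjusted p = 0.00317), and PHLDA3 and LATS2 by -2.80 (SE 0.50) and -1.58 (SE 0.29), each with an adjusted p of 0.00339. EGLN1 differed by -1.37 (SE 0.23, adjusted p = 0.00304). Against the NTS, where chemoreceptor and lung afferents end, 398 genes (2.44%) passed, 319 higher (1.95%) and 79 lower (0.484%) in the VRC. The ribosomal protein gene RPL26 (1.43, SE 0.27, adjusted p = 0.00288) and SMIM11 (1.24, SE 0.21, adjusted p = 0.00196) were among the higher, and COX1 (-3.50, SE 0.77, adjusted p = 0.00784) and ZNF329 (-1.63, SE 0.35, adjusted p = 0.00570) among the lower. Of the 112 genes that fell, 63 passed in the comparison with the RTN, 32 in that with the NTS and 28 in both. They were called on the VRC effect that enters each difference, so these counts are a description. Both tests treated libraries of the same groups of goats at different sites as independent. The labels do not say whether a replicate number marks the same goat across sites. With that number as a block, 185 genes passed against the RTN and 782 (538 higher, 244 lower) against the NTS.

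In the RTN of the same groups of goats the genes that fell in the VRC were mostly higher after CO2. There 0 of 15479 genes passed at 24 h by edgeR (lowest adjusted p = 0.411), with 1001 at an unadjusted p under 0.05 (6.47%), of which 578 were higher (3.73%). Of the 110 of the 112 genes that were tested there, 100 had a higher mean after CO2 and 10 a lower one, with a median change of 0.31, whereas 50.2% of all genes were lower. An unadjusted p under 0.05 was reached by 50 of them, 49 higher and 1 lower (2.73% of all genes for lower). PPM1D had a change of 0.68 (SE 0.23) in the RTN, AKT1 0.72 (SE 0.24), PHLDA3 1.20 (SE 0.38) and OLIG1 0.85 (SE 0.32). In the NTS, 65 of 111 were higher and 46 lower, close to the 47.1% of all genes that were lower. The median was 0.02, as it was over all genes. Of the 111, 4 reached an unadjusted p under 0.05, 3 higher and 1 lower, against 10.2% of all genes (4.34% higher, 5.85% lower). By edgeR 0 of 15605 genes passed there (1591 at an unadjusted p under 0.05). The libraries of the 3 sites are separate but come from the same groups of goats. The members were chosen for lower levels after CO2 than in room air in the VRC, so no test is given for these counts. CD1D had positive changes at all 3 sites (0.79, SE 0.27 in the NTS; 0.63, SE 0.26 in the RTN), and neither difference from the VRC passed (adjusted p = 0.629 and 0.893).

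**Figure D4:**
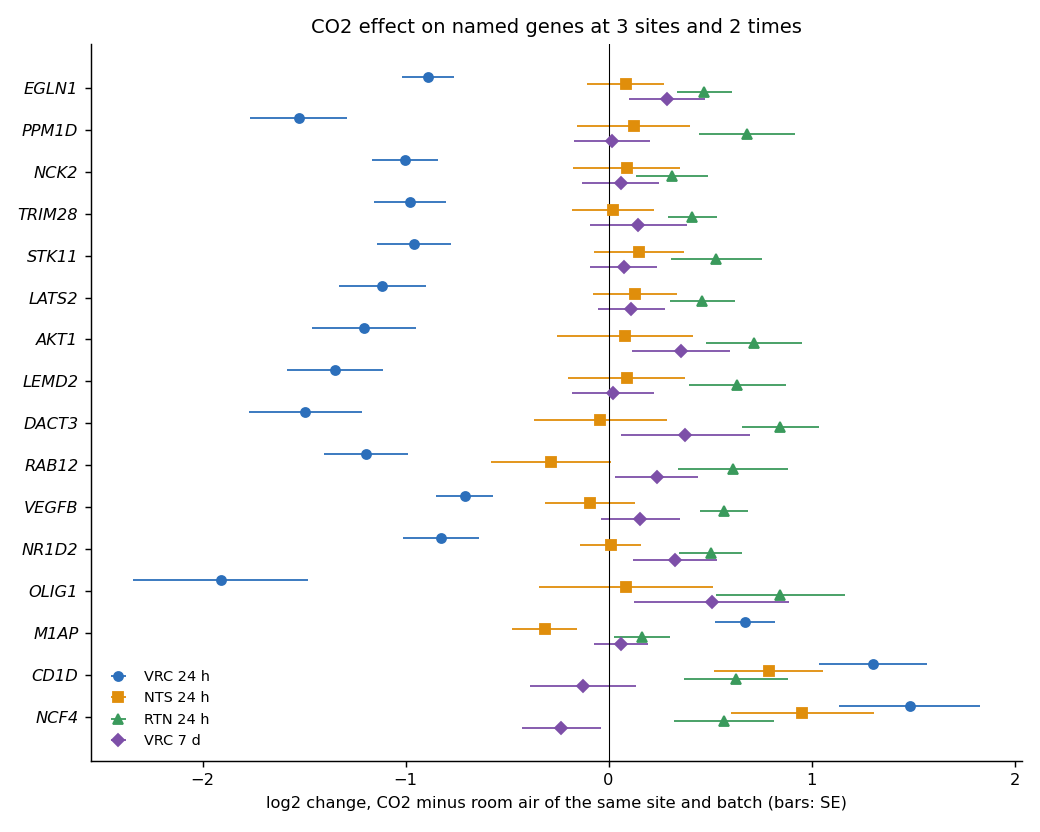
Log2 change of 16 named genes after CO2, set against the matching room-air group, with bars of 1 SE: circles for the VRC at 24 h, squares for the NTS at 24 h, triangles for the RTN at 24 h and diamonds for the VRC at 7 d. For the 13 upper genes the circles lie left of 0 and the triangles right of it; for CD1D and NCF4 the 3 markers of 24 h lie right of 0.

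The 7 d VRC libraries, CO2 against room air, come from other animals and the second batch. By edgeR 0 of 15179 genes passed (lowest adjusted p = 0.747), with 996 at an unadjusted p under 0.05 (6.56%), and DESeq2 called 2. Of the 109 tested genes that fell at 24 h, 32 were lower and 77 higher at 7 d, whereas 49.3% of all genes were lower. Their median change was 0.09, and 5 reached an unadjusted p under 0.05, 3 higher (3.10% of all genes) and 2 lower (3.47%). EGLN1 had a change of 0.29 (SE 0.19) at 7 d, PPM1D 0.02 (SE 0.19), TRIM28 0.15 (SE 0.24) and OLIG1 0.51 (SE 0.38). The effect at 7 d minus that at 24 h passed for 0 of 15769 genes by edgeR (lowest adjusted p = 0.0863), with 1059 at an unadjusted p under 0.05, and DESeq2 called 49. The differences of lowest p belong to EGLN1 (1.17, SE 0.23), NRARP (3.75, SE 0.78), HS6ST1, a heparan sulphate sulphotransferase (1.74, SE 0.36), and PPM1D (1.54, SE 0.32), each with an adjusted p of 0.0863. Time and batch cannot be told apart in this difference.

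The level of the 112 genes was then followed through all 90 libraries, as the median over the genes of each library's deviation from the mean of the 15 groups on the log2(CPM + 1) scale. In the 24 h room-air VRC it ran from 0.34 to 0.70 with a median of 0.57, so every library lay above that mean. In the VRC after 24 h of CO2 it ran from -0.46 to -0.15, in the VRC after 3 h from -0.47 to 0.49 and in the 7 d room-air VRC from -0.50 to 0.01. The room-air libraries of the NTS and RTN at 24 h ran from -0.41 to 0.06 and from -0.30 to 0.12. Libraries of other groups reached the range of the 24 h room-air VRC or passed it, up to 0.92 in the NTS after 3 h. In the RTN after 3 h, libraries 4, 5 and 6 did so, at 0.38, 0.62 and 0.52. Others were in the VRC after 3 h (up to 0.49) and the RTN after 24 h of CO2 (0.47). After 7 d of CO2 the NTS reached 0.47 and the RTN 0.43. Within the CO2 group library 5 was the lowest at -0.46, followed by the shallow library 4 at -0.39, and within the room-air group library 5 was the lowest at 0.34. EGLN1 averaged 78.8 CPM in the room-air VRC at 24 h, 35.8 CPM in that at 7 d, and 49.7 and 49.4 CPM in the room-air NTS and RTN at 24 h. PPM1D averaged 21.3, 8.35, 9.19 and 9.03 CPM in the same 4 groups, and TRIM28 150.3, 96.8, 101 and 91.5 CPM. These means show the room-air VRC at 24 h above the other 3 room-air groups for each of the 3 genes, and how far that belongs to the punches or to the goats was not tested.

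**Figure D5:**
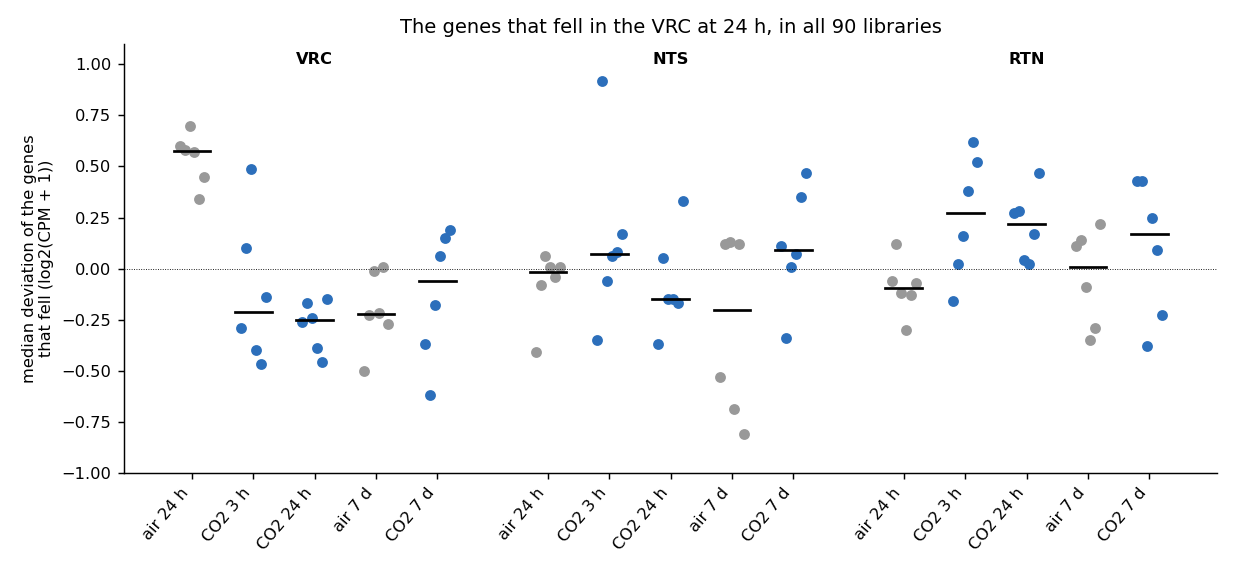
Each point is 1 of 90 libraries and gives the median deviation, over the 112 genes that fell in the VRC at 24 h, from the mean of the 15 groups in log2(CPM + 1); grey is room air, blue is CO2, and bars are group medians. The 6 room-air VRC libraries at 24 h sit between 0.34 and 0.70, and the 6 VRC libraries after 24 h of CO2 between -0.46 and -0.15.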

How the data were processed

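Libraries were made from total RNA with a SMART-Seq v4 and Nextera XT kit, per the labels' protocols, and sequenced as 100 bp paired reads. The submitters' processing notes list, with no role or order, edgeR 4.6, featureCounts 2.0.6, STAR 2.7.10b and fastp 0.24.0. The genome build is not given in the sources used here. Raw counts, as deposited, cover 25144 genes in 90 libraries. The authors' deposited result tables hold log2 changes, likelihood ratio scores and p-values for selected genes.

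Symbols were linked by equal mean abundance between those tables and a fit over all 90 libraries, which gave 238 symbols. The 12 libraries and the 6 of 3 h of CO2 were fitted together (edgeR 4.0.16 in R 4.3.3, TMM, filterByExpr, robust quasi-likelihood), with Benjamini-Hochberg adjustment over all genes tested. CPM were scaled by TMM over 90 libraries. The test was checked on simulated data with 200 changed genes. Alternatives were DESeq2 1.42.0, limma 3.58.1 (voom), other filters and scalings, and leaving out each library.

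Named genes with a symbol are every gene that rose, the 20 of lowest p that fell with a mean of at least 1 CPM, every linked list member, and in other comparisons the 5 of lowest p in each direction; other names were chosen after their values were seen. The members and lists were chosen with earlier results of these data known. For the names chosen after their values were seen, no leave-one-out counts are given. The 6 animals of a group are separate goats, so within a site p-values measure the spread between animals. The tests of a difference between sites treated libraries of the same groups of goats as independent, with no block for the animal.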

Additional observations from a re-analysis of the deposited data

Results flagged for a closer look

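The total of CO2 library 4, 5.46 M counts, stood apart from the other 5 libraries of its group by Dixon's test. Over 76 groups of 6 values (37 named genes and the totals, each in room air and CO2), 6 values stood apart in this way, counting that total, and chance flags about 1 in 20 groups. LATS2 reached 10.5 CPM in CO2 library 6 and GUCA1A 3.97 CPM in CO2 library 5. EGLN1 was at 59.3 CPM in room-air library 5, MTCL2 at 69.1 CPM in room-air library 1 and APCDD1 at 113 CPM in room-air library 3. The causes were not tested.

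Named genes were also flagged because the effect of 24 h of CO2 differed between sites by an interaction test at an adjusted p under 0.05. The VRC effect minus the NTS effect, on the log2 scale, was: EGLN1 -0.97, PPM1D -1.64, NCK2 -1.09, DENND5A -0.75, LRP8 -1.17, MTCL2 -0.89, LEMD2 -1.43, CCDC85C -1.58, EIF4E3 -0.82, TRIM28 -1, STK11 -1.11, LATS2 -1.23, DACT3 -1.45, PHLDA3 -1.95, M1AP 0.98, ADAP1 -1.02, RHOU -1.41, ZNF329 -1.63. The VRC effect minus the RTN effect was: EGLN1 -1.37, PPM1D -2.22, NCK2 -1.33, RAB12 -1.82, LRP8 -1.51, MTCL2 -0.90, LEMD2 -1.99, CCDC85C -2.17, EIF4E3 -0.84, EXOSC6 -2.85, TRIM28 -1.40, STK11 -1.5, LATS2 -1.58, DACT3 -2.36, VEGFB -1.29, PHLDA3 -2.80, AKT1 -1.93, NR1D2 -1.34, APCDD1 -1.59, ADAP1 -1.31, RHOU -1.76, OLIG1 -2.77, ZNF329 -1.69. M1AP is the only positive difference among these values. Most named genes were chosen for falling in the VRC, so the negative signs follow from that choice. Over all genes, 319 of the 398 differences that passed against the NTS were positive, and 3 of the 108 against the RTN.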

How the results depend on the processing

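Between room air and 24 h of CO2, 126 genes passed. DESeq2 called 274 (50 higher, 224 lower), the 2 groups fitted alone 263 (48 higher, 215 lower) and edgeR's older dispersion estimate 81. Leaving out 1 library gave 18 to 126 calls: 53, 43, 30, 61, 125 and 126 without room-air libraries 1 to 6, and 18, 81, 43, 52, 24 and 111 without CO2 libraries 1 to 6. All 126 genes kept their sign in each of these 12 fits, 15 passed in all 12 and 5 in none. Counting those 5, 82 of the 126 passed in 6 or fewer of the fits. The genes were called on libraries that these fits share, so the kept signs are a description. Other filters, size factors, voom and the likelihood ratio test gave 113 to 163. Over the 37 genes of the naming rule and these settings, 636 values kept their side of the threshold, 176 lost it and 0 reversed. DESeq2 called 14 genes against 3 h, 2 at 7 d and 49 for 7 d minus 24 h, where edgeR called 0.

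The replicate numbers are not stated to mark shared animals. With the number as a replicate block, 179 genes passed between room air and CO2 in the VRC, where same-numbered libraries are different goats (residual correlation 0.0175 to 0.226, over 0.1 in 3 of 6 pairs). The block gave 782 genes (538 higher, 244 lower) for the VRC minus the NTS effect and 185 (8 higher, 177 lower) for the VRC minus the RTN effect, where 398 and 108 passed without it. Across sites same-numbered libraries correlated at 0.0485 to 0.607, and 23 of 24 correlated best with their own number, a hint from the data and not the design. The block gave 0 against 3 h, at 7 d and for 7 d minus 24 h.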
